A study of Mus musculus with 6 samples.

Results

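The genes described here encode proteins that detect damaged DNA, signal its presence or repair it. They were taken from a fixed list of 46 gene symbols, and a gene counted as measured when a row of the deposited array table was annotated to that symbol and to no other. Of the 46 genes 41 were measured, among 17858 genes in all. Lig3 and Neil3 shared a row with another gene, Xrcc2, Tdp1 and Trp53 had no row of their own, and these 5 were not analysed here. The arrays held RNA of C57BL/6 mouse cerebellum in 2 age groups of 3 arrays each, P7 (postnatal day 7) and 6wk (6 weeks of age). Neither group carried a labelled treatment or allele, and the sources used here do not give sex or say whether replicates were separate animals, so p-values cover the variation among these arrays alone, part of which may be technical. The series title and design text place the arrays beside a study of 5-hydroxymethylcytosine, and the question asked here was how repair genes differed between the ages.

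Cells repair DNA by several routes. Homologous recombination copies an intact sister chromatid and is therefore used mainly in S and G2 phase, as is the Fanconi anaemia pathway, which removes crosslinks that block replication forks, and mismatch repair corrects replication errors. Base excision, nucleotide excision and end joining also act in cells that no longer divide. In the mouse cerebellum, granule neuron progenitors proliferate after birth and have left the cell cycle in the adult. By these textbook roles, the 41 measured genes were grouped into 18 replication-linked genes (9 of homologous recombination, 6 of crosslink repair and 3 of mismatch repair), 12 excision genes, 5 end-joining genes and 6 damage signalling genes.

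Promoter sequence is shown for 3 members whose values the text returns to, picked after their values and matches were seen, because dividing cells regulate many genes through E2F sites and CCAAT boxes. RefSeq (GRCm38.p6) gives the 150 bases before each gene, written 5′ to 3′ on the gene's strand, with matches to the letters searched in capitals.
Brca1 (chr11:101551956-101552105, minus strand): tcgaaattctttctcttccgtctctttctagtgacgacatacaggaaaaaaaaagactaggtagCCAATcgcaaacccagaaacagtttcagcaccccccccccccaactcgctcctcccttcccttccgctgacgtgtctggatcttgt
Chek1 (chr9:36726659-36726808, minus strand): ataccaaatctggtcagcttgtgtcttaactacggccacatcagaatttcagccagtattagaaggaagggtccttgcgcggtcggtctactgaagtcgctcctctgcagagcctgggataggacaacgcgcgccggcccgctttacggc
Mdc1 (chr17:35841345-35841494, plus strand): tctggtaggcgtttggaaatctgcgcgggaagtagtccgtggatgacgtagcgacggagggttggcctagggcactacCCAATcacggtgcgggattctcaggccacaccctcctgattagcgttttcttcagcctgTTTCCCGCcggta
The Brca1 stretch held a CCAAT box, the Mdc1 stretch a CCAAT box and the E2F form TTTCCCGC, and the Chek1 stretch neither.

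Array values are on the log2 scale, where a difference of 1 is a doubling of the linear value. The array medians over all rows lay between 7.82 and 7.97. The P7 arrays were unlike each other, and P7 replicate 2 stood apart in markers of granule neurons, Purkinje cells and proliferating cells. Mature granule neuron markers had a median level of 9.65, 6.94 and 8.79 in P7 replicates 1, 2 and 3 and of 11.13 to 11.40 at 6wk, and Purkinje cell markers 9.80, 8.14 and 9.17 against 10.47 to 10.77. Markers of tissue next to the cerebellum ran the other way, with medians of 7.37, 9.12 and 8.70 at P7 and 7.02 to 7.40 at 6wk. Of these 7, Otx2 differed, being highest in P7 replicate 1 (9.11, 8.61 and 8.60). Th was higher at 6wk (8.55 to 8.75) than in P7 replicate 1 (7.63). Choroid plexus markers had medians of 9.02, 7.16 and 7.97 at P7, lowest in replicate 2, and of 7.845 to 8.38 at 6wk. Oligodendrocyte precursor markers, of which 4 of 4 fell, had medians of 8.55, 9.23 and 8.90 at P7, highest in replicate 2 as in Trp53bp1, and of at most 7.63 at 6wk. Endothelial markers were also mostly lower at 6wk (4 of 5 fell, median difference -0.49). Markers of astrocytes and Bergmann glia were mixed (median difference -0.63). Of these 5, Gfap, Aqp4 and Aldh1l1 fell, while Slc1a3 (0.32) and Gdf10 (0.82) had positive differences that were not called. Markers of proliferating cells read 9.44, 7.49 and 8.83 in P7 replicates 1, 2 and 3 and 6.20 to 6.26 at 6wk, and the part that the mix of tissue or cells played in the results below was not tested. In whole tissue, fewer cells of a type and less RNA per cell cannot be told apart. Counts are therefore given with and without P7 replicate 2. P7 replicate 3, also high in markers of tissue next to the cerebellum, remains in the fits without P7 replicate 2.

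None of the 41 measured members rose between P7 and 6wk, and 11 fell (limma, adjusted p under 0.05 over all genes). Those that fell were Bard1, Chek1, Exo1, Fanci, Fancd2, Brca1, Fanca, Trp53bp1, Rad54b, Lig4 and Ogg1. The 11 made up 26.8% of the measured members. Of all genes 21.7% were called, 13.4% lower and 8.26% higher at 6wk. At an unadjusted p under 0.05, 14 of the 41 members were lower and 0 higher, and of all 17858 genes 4002 were lower and 2369 higher. The median log2 difference of the 41 was -0.28, against -0.05 over all genes, and single differences ran from -1.79 (Bard1) to 0.13 (Fancc). The values of the 2 ages did not overlap in 18 members, all lower at 6wk, whereas 25.7% of all genes lay wholly lower and 16.4% wholly higher at 6wk.

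**Figure D1:**
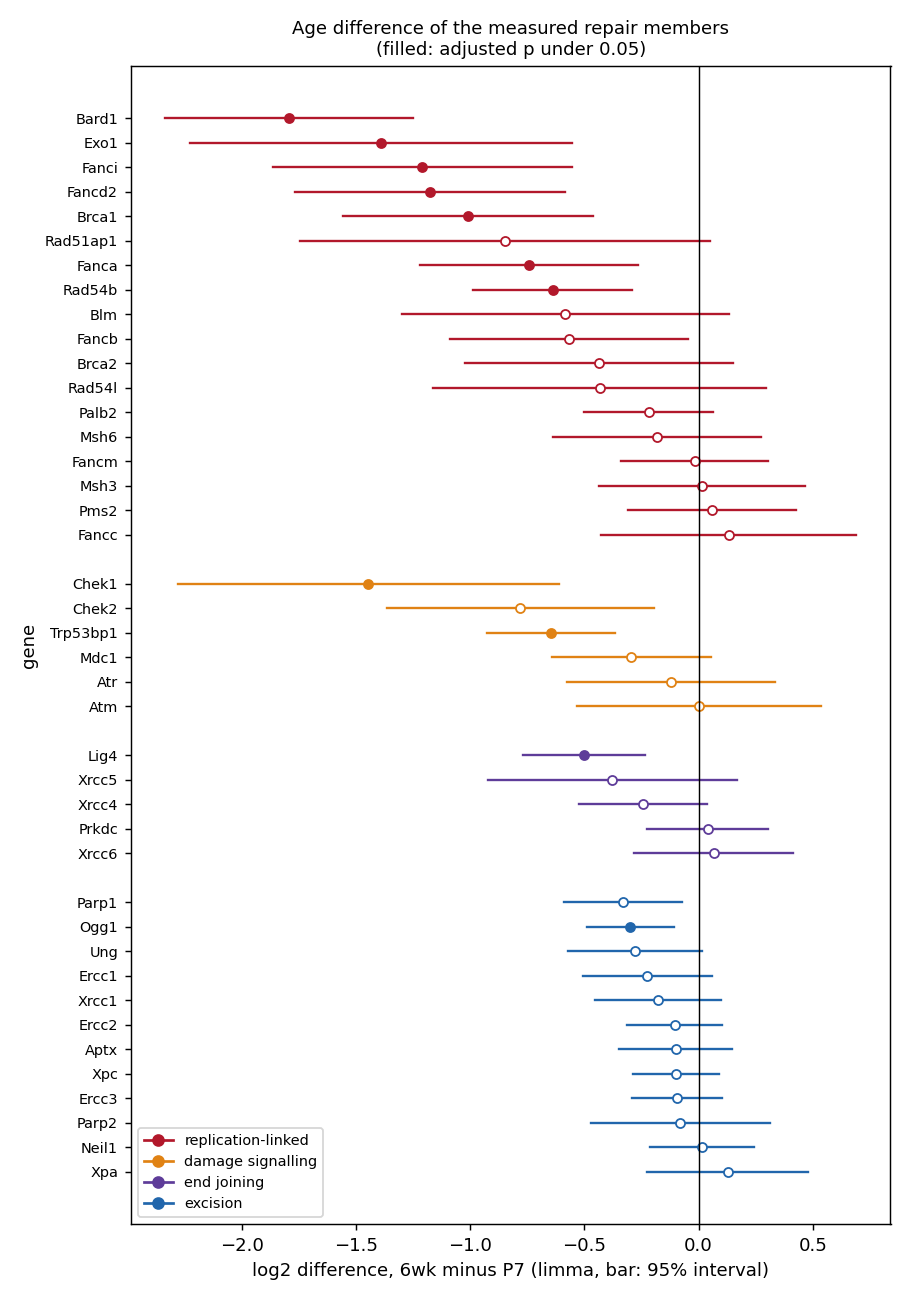
Log2 difference 6wk minus P7 (x axis) for each of the 41 measured genes (y axis), coloured by class, with the 95% interval from limma as a bar and filled points for genes called at an adjusted p under 0.05. The 7 filled replication-linked points run from -1.79 to -0.64, and the single filled excision point, Ogg1, lies at -0.30.

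Without P7 replicate 2 the count of falling members went from 11 to 20, or 48.8% of those measured, where 17.2% of all genes were called lower. With P7 replicate 1 as the only P7 array it was 21 (all genes 14.7%), and the spread then came from the 6wk arrays alone. Leaving out P7 replicate 3 or 6wk replicate 1, 2 or 3 reduced the count to 2, 1, 3 and 1, or 4.88%, 2.44%, 7.32% and 2.44% of members. The share of all genes called lower fell to 5.4%, 6.15%, 7.02% and 5.61%. In these fits the share of members was thus near or below that of all genes. Without P7 replicate 1 the count of falling members was 10 (24.4%, all genes 16.3%). Of the other settings, quantile normalization and array centring each gave 9 falling members (22%, against 9.97% and 9.54% of all genes). Without dim rows 4 of 34 fell (11.8%, all genes 16.6%), and with array weights 24 (58.5%, all genes 30.9%). A trended, robust prior and averaged rows each gave 11 (26.8%, against 14.2% and 13.3% of all genes). Bard1 was the only member called in each of the 6 fits that omit an array.

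With all arrays the classes differed in how many members moved, where 13.4% of all genes were called lower. Of 18 replication-linked genes 7 fell (38.9%, median -0.58), of 6 damage signalling genes 2 (median -0.47), of 5 end-joining genes 1 (median -0.24) and of 12 excision genes 1 (8.33%, median -0.10). Without P7 replicate 2 these counts were 12, 4, 2 and 2, with medians of -0.77, -0.50, -0.27 and -0.17. The excision count thus stayed near the share of all genes called lower (17.2%), at 16.7%. On omitting P7 replicate 3 or 6wk replicate 1, 2 or 3, the replication-linked counts were 2, 1, 1 and 1. As shares these were 11.1%, 5.56%, 5.56% and 5.56%, against 5.4% to 7.02% of all genes. The excision count was 0 in each of these fits, so the gap in counts was small there. The medians stayed apart, at -0.56 to -0.57 and -0.11 to -0.14. Without P7 replicate 1 they lay closer together, at -0.32 and -0.10, with counts of 7 and 0. No test between classes was made, so these counts and medians are descriptions.

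**Figure D2:**
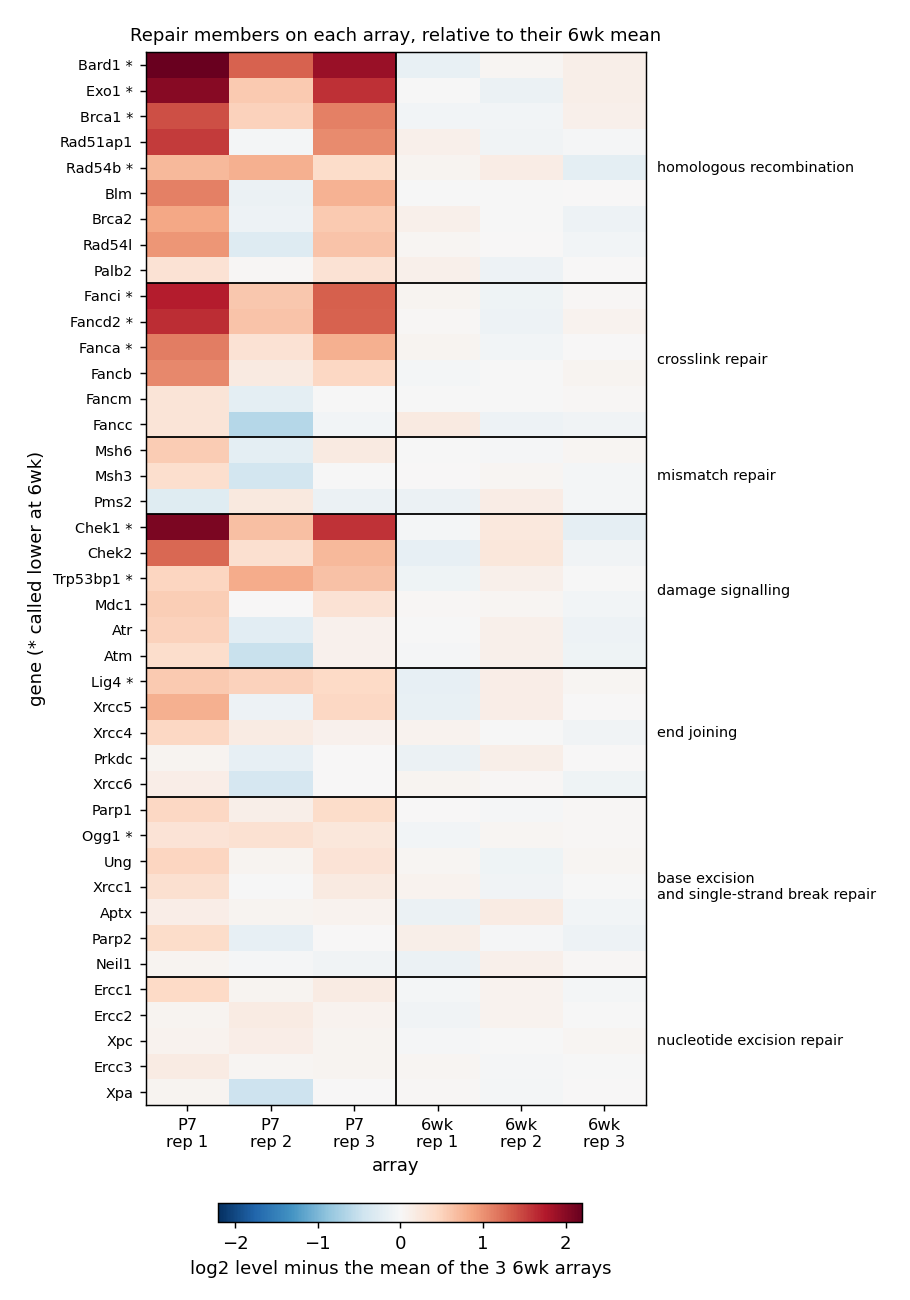
Log2 level of each measured gene (rows, by class) on each array (columns), relative to the gene's mean over the 3 6wk arrays; red is higher, blue lower, and asterisks mark genes called lower at 6wk. The strongest red lies in P7 replicates 1 and 3 in genes of homologous recombination and crosslink repair and in Chek1, and the rows of nucleotide excision repair are pale throughout.

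Among the genes of homologous recombination, Bard1, the partner that forms a ubiquitin ligase with Brca1, showed the largest fall. It read 7.73, 6.85 and 7.45 in P7 replicates 1, 2 and 3 and 5.38, 5.595 and 5.67 in the 6wk replicates. Every P7 array was more than 1 log2 unit above every 6wk array. Its mean was 7.34 ± 0.45 (SD, n = 3) at P7 and 5.55 ± 0.15 (SD, n = 3) at 6wk. The difference was -1.79 on the log2 scale (SE 0.23, limma adjusted p = 0.00352), and -2.04 without P7 replicate 2.

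Brca1 itself, which promotes recombination at broken ends, read 7.63, 6.72 and 7.32 at P7 and 6.16, 6.16 and 6.33 at 6wk. The ages did not overlap, although P7 replicate 2 lay much nearer to the 6wk arrays than the other P7 arrays did. The difference was -1.01 (SE 0.23, adjusted p = 0.0245), and -1.26 without P7 replicate 2. In the fits that omit an array, the adjusted p ran from 0.00173 to 0.0936, and leaving out P7 replicate 3 or one of the 6wk arrays ended the call.

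Exo1, a nuclease that resects DNA ends and also serves mismatch repair, behaved in the same way. Its levels were 7.78, 6.35 and 7.39 at P7 and 5.77, 5.65 and 5.92 at 6wk, a difference of -1.39 (SE 0.35, adjusted p = 0.0341; range 0.00104 to 0.117 when single arrays were omitted). Rad54b, a DNA translocase related to Rad54l, had a different profile, since P7 replicate 2 was not low. It read 6.72, 6.79 and 6.41 at P7 and 6.06, 6.16 and 5.79 at 6wk, with a difference of -0.64 (SE 0.15, adjusted p = 0.0251; range 0.0377 to 0.0883). The calls of Exo1 and Rad54b were lost without any one of the 6wk arrays, and that of Exo1 also without P7 replicate 3.

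The other 5 measured genes of this route, namely Brca2, Palb2, Rad51ap1, Rad54l and Blm, did not pass with all arrays. Each had P7 replicates 1 and 3 above all 6wk arrays and P7 replicate 2 within or below their range. Brca2, which acts at resected single-stranded DNA, read 8.10, 7.13 and 7.82 at P7 and 7.37, 7.24 and 7.13 at 6wk (difference -0.44, 95% interval -1.02 to 0.15). Rad51ap1, which takes part in strand exchange, had the widest P7 spread of the class, with 8.11, 6.54 and 7.62 against 6.68, 6.49 and 6.55 (difference -0.85, interval -1.75 to 0.05).

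Blm, the helicase mutated in human Bloom syndrome, read 8.40, 7.16 and 8.05 at P7 and 7.28, 7.28 and 7.298 at 6wk. Its difference was -0.58 (interval -1.30 to 0.13) and its 6wk arrays agreed within 0.01 SD. Rad54l, the motor protein that remodels chromatin during strand exchange, read 7.91, 6.66 and 7.57 against 6.998, 6.95 and 6.90 (difference -0.43, interval -1.16 to 0.30). Without P7 replicate 2, Brca2 (-0.71), Rad51ap1 (-1.29), Rad54l (-0.79) and Blm (-0.94) were called lower, with adjusted p of 0.00966, 0.00313, 0.00661 and 0.00369. Over the fits that omit an array their adjusted p reached 0.478, 0.343, 0.674 and 0.428. Palb2, which links Brca1 to Brca2, was at -0.22 with all arrays and -0.32 without P7 replicate 2, where its adjusted p was 0.0639 (range 0.0639 to 0.504).

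The crosslink repair genes divided into 4 with separate ages and 2 that overlapped. Fanci and Fancd2 form the pair that is ubiquitinated at a stalled fork. Fanci read 7.73, 6.60 and 7.32 at P7 and 6.07, 5.91 and 6.03 at 6wk, a difference of -1.21 (SE 0.27, limma adjusted p = 0.0243). Fancd2 read 7.43, 6.44 and 7.103 at P7 and 5.84, 5.71 and 5.89 at 6wk, a difference of -1.18 (SE 0.25, adjusted p = 0.0189). In both, P7 replicate 2 was the lowest P7 array and still above all 6wk arrays.

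Fanca and Fancb belong to the core complex that ubiquitinates that pair. Fanca read 7.79, 6.99 and 7.45 at P7 and 6.73, 6.61 and 6.67 at 6wk, a difference of -0.74 (SE 0.20, adjusted p = 0.0419), and its call was lost after array centring (0.0600) or a further quantile normalization (0.0757). Fancb, an X-linked gene, read 8.02, 7.15 and 7.41 against 6.91, 6.95 and 7.02. Its difference of -0.57 did not pass (adjusted p = 0.114), though the ages did not overlap, and it was -0.76 without P7 replicate 2 (adjusted p = 0.0289; range 0.0289 to 0.253). The calls of Fanci, Fancd2 and Fanca each ended when P7 replicate 3 or one of the 6wk arrays was left out, with adjusted p up to 0.0916, 0.0776 and 0.132.

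Fancc, also of the core complex, and Fancm, a translocase that recognises stalled forks, showed no such pattern. Fancc read 7.46, 6.56 and 7.12 at P7 and 7.37, 7.06 and 7.102 at 6wk (difference 0.13, interval -0.43 to 0.69). Fancm read 7.35, 6.87 and 7.06 at P7 and 7.06, 7.07 and 7.097 at 6wk (difference -0.02, interval -0.34 to 0.30). The interval of Fancm leaves out the differences of -0.57 to -1.21 measured for Fancb, Fanca, Fancd2 and Fanci.

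Mismatch repair genes gave 0 calls in 3 with limma, and 0 at an unadjusted p under 0.05. So few genes cannot be set apart from the 21.7% of all genes called. Msh3 and Msh6, which recognise mismatched bases, differed by 0.02 (interval -0.44 to 0.47) and -0.18 (interval -0.64 to 0.27). Msh6 read 8.08, 7.31 and 7.71 at P7 and 7.51, 7.49 and 7.56 at 6wk, so P7 replicates 1 and 3 were above and P7 replicate 2 was below the 6wk arrays. Pms2, which cuts the new strand, read 6.93, 7.42 and 7.07 at P7 and 7.07, 7.37 and 7.15 at 6wk (difference 0.06, interval -0.31 to 0.43), and was highest in P7 replicate 2.

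**Figure D3:**
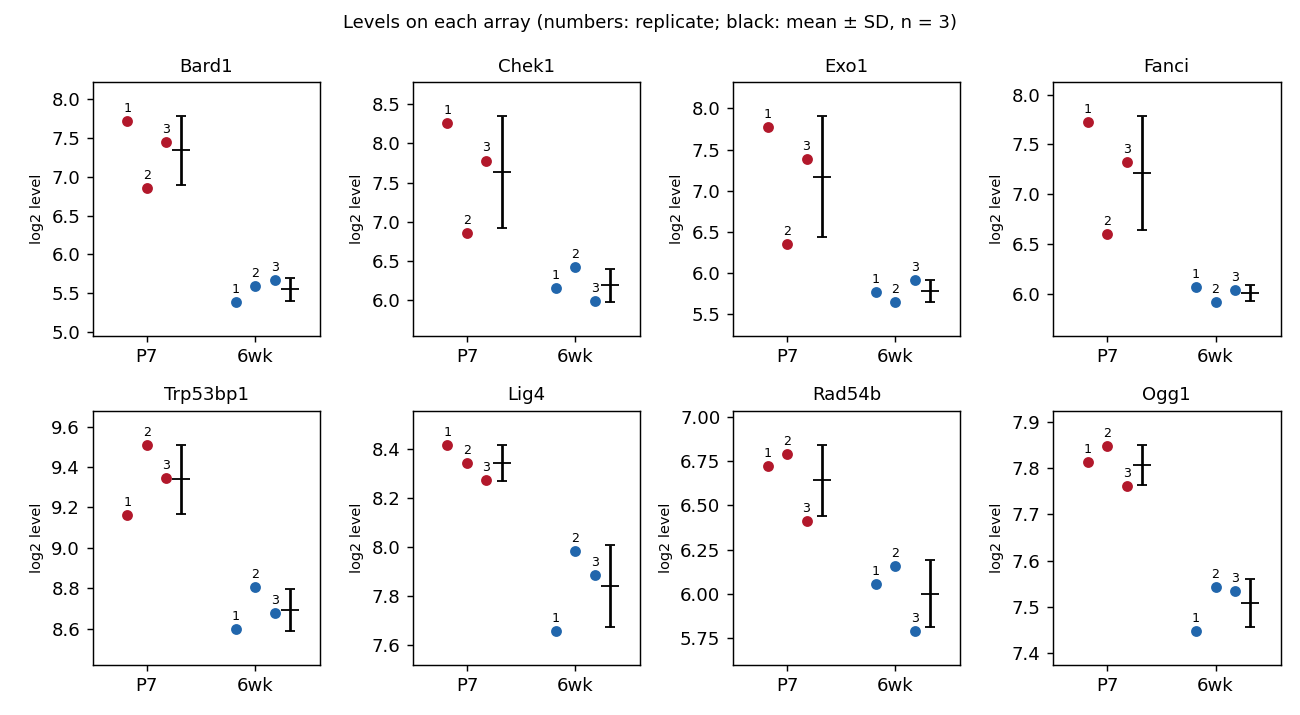
Log2 levels (y axis) of 8 genes that fell, at P7 (red) and 6wk (blue), with the replicate number at each point and the mean ± SD (n = 3) in black; each panel has its own scale, which does not start at 0. In the upper panels (Bard1, Chek1, Exo1, Fanci) P7 replicate 2 is the lowest P7 array, and in the lower panels (Trp53bp1, Lig4, Rad54b, Ogg1) it is not.

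Damage signalling genes included 2 that fell in unlike ways. Chek1, the kinase that holds the cell cycle when replication is disturbed, read 8.27, 6.86 and 7.78 at P7 and 6.15, 6.42 and 5.99 at 6wk. The difference of -1.45 (SE 0.35, limma adjusted p = 0.0301) was the second largest of all members, and it was -1.84 without P7 replicate 2 (range of adjusted p 0.00188 to 0.106). Trp53bp1, which binds chromatin at breaks and favours end joining, read 9.16, 9.51 and 9.35 at P7 and 8.60, 8.80 and 8.68 at 6wk. Here P7 replicate 2 was the highest array, and the difference was -0.65 (SE 0.12, adjusted p = 0.0118; range 0.00812 to 0.0571). Both calls were lost without P7 replicate 3, 6wk replicate 1 or 6wk replicate 3, that of Chek1 also without 6wk replicate 2, and that of Trp53bp1 also with P7 replicate 1 alone (0.0562).

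Chek2, the checkpoint kinase that Atm activates, read 8.04, 7.13 and 7.50 at P7 and 6.60, 7.03 and 6.70 at 6wk. The ages did not overlap, and the difference of -0.78 did not pass (interval -1.36 to -0.20, adjusted p = 0.0665), but was -0.99 without P7 replicate 2 (adjusted p = 0.0163; range 0.0163 to 0.189). The upstream kinases had differences near 0. Atm, which responds to double-strand breaks and whose loss causes cerebellar degeneration in people, read 7.996, 7.11 and 7.71 at P7 and 7.58, 7.72 and 7.51 at 6wk (difference 0.0019, interval -0.53 to 0.54). Atr, which responds to stalled forks, differed by -0.12 (interval -0.57 to 0.33).

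Mdc1, the scaffold that binds phosphorylated histone H2AX and whose promoter is shown above, read 8.98, 8.44 and 8.76 at P7 and 8.45, 8.47 and 8.37 at 6wk. P7 replicate 2 lay within the 6wk range, so the ages overlapped. The difference was -0.29 with all arrays (adjusted p = 0.203) and -0.44 without P7 replicate 2 (adjusted p = 0.0268; range 0.0268 to 0.398).

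Among the end-joining genes Lig4, the ligase that seals breaks together with Xrcc4, fell. It read 8.42, 8.34 and 8.27 at P7 and 7.66, 7.98 and 7.88 at 6wk, a difference of -0.50 (SE 0.11, limma adjusted p = 0.0227; range 0.0313 to 0.0771). The P7 arrays were close together, and the call was lost without P7 replicate 3, 6wk replicate 1 or 6wk replicate 3, and with P7 replicate 1 alone (0.0654). Its partner Xrcc4 read 9.10, 8.83 and 8.74 against 8.73, 8.63 and 8.58, with no overlap and a difference of -0.24 that did not pass (adjusted p = 0.193).

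Xrcc5 and Xrcc6 encode the Ku80 and Ku70 subunits that cap broken ends as a dimer. Xrcc5 read 8.88, 8 and 8.56 at P7 and 7.94, 8.26 and 8.12 at 6wk (difference -0.38, interval -0.92 to 0.17), and without P7 replicate 2 it was called lower at -0.62 (adjusted p = 0.0251; range 0.0251 to 0.535). Xrcc6 was at 0.07 (interval -0.28 to 0.41) with all arrays and at -0.08 without P7 replicate 2. Prkdc, the catalytic subunit of the kinase that Ku recruits, read 7.65, 7.41 and 7.61 at P7 and 7.46, 7.72 and 7.60 at 6wk. Its difference was 0.04 (interval -0.23 to 0.31), which leaves out a change of the size seen in Lig4.

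Excision genes showed small differences, from -0.33 to 0.13. In base excision and single-strand break repair, Ogg1, the glycosylase that removes oxidised guanine, was the 1 call among 7 measured genes. Its levels were 7.81, 7.85 and 7.76 at P7 and 7.45, 7.54 and 7.53 at 6wk, a small difference of -0.30 (SE 0.08, limma adjusted p = 0.0420). The P7 arrays agreed closely, including P7 replicate 2. The call was lost whichever array was omitted (adjusted p from 0.0588 to 0.139), and also after array centring (0.132) or a further quantile normalization (0.121).

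Parp1, the sensor that marks strand breaks with poly(ADP-ribose), read 8.55, 8.23 and 8.51 at P7 and 8.11, 8.07 and 8.12 at 6wk. The ages did not overlap, and the difference of -0.33 did not pass (interval -0.59 to -0.07, adjusted p = 0.0762), whereas without P7 replicate 2 it was called at -0.43 (adjusted p = 0.0130; range 0.0130 to 0.234). Ung, which removes uracil from DNA and has a form tied to replication, was at -0.28 (adjusted p = 0.158) and at -0.39 without P7 replicate 2 (adjusted p = 0.0341; range 0.0341 to 0.354). Parp2, a second poly(ADP-ribose) polymerase, differed by -0.08 (interval -0.47 to 0.31).

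Xrcc1, the scaffold of single-strand break repair, differed by -0.18 (interval -0.45 to 0.10). Aptx, which cleans abortive ligation ends and is mutated in a human ataxia, differed by -0.10 (interval -0.35 to 0.15). Neil1, a glycosylase for oxidised bases, read 7.88, 7.80 and 7.74 at P7 and 7.70, 7.92 and 7.84 at 6wk, a difference of 0.02 (interval -0.21 to 0.24). None of these 3 was called in any of the 6 fits that omit an array.

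Nucleotide excision repair gave 0 calls in 5 genes with limma, and 0 at an unadjusted p under 0.05. Where 21.7% of all genes were called, 0 of 5 cannot set this class apart. Ercc2 and Ercc3, the helicases of transcription factor TFIIH, differed by -0.10 (interval -0.31 to 0.10) and -0.10 (interval -0.29 to 0.10). Xpc, which recognises distorted DNA, read 7.60, 7.68 and 7.59 at P7 and 7.49, 7.52 and 7.57 at 6wk, a difference of -0.10 (interval -0.29 to 0.09). For these 3 genes the intervals leave out a fall as large as -0.50. Ercc1, part of the nuclease that cuts on the 5′ side of a lesion, was at -0.22 (interval -0.51 to 0.06). Xpa, which verifies the lesion, was at 0.13 (interval -0.23 to 0.48).

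The order of the P7 arrays was alike in most members of every class. A gene was highest in P7 replicate 1, lower in replicate 3 and lowest in replicate 2 in 16 of 18 replication-linked genes, 5 of 6 damage signalling genes, 3 of 5 end-joining genes and 8 of 12 excision genes, against 34.1% of all genes. All 13 measured markers of proliferating cells had this order. The step from P7 replicate 1 to P7 replicate 2 had a median of -0.89 in the replication-linked genes, -0.81 in damage signalling, -0.26 in end joining and -0.23 in excision, and of 0.02 over all genes. For the proliferation markers it was -1.80. Of the 11 members that fell with all arrays, Trp53bp1, Lig4, Rad54b and Ogg1 lacked this order.

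**Figure D4:**
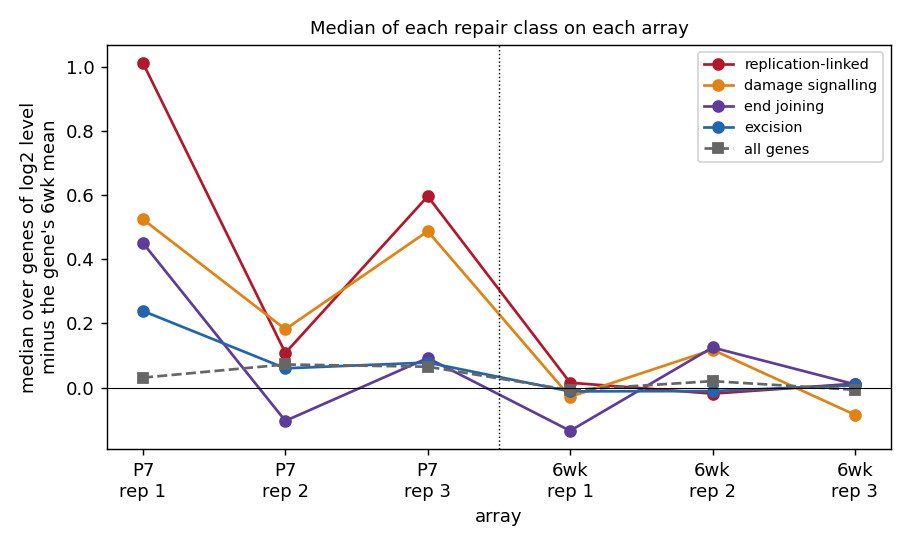
Median over the genes of a class of the log2 level minus the gene's own 6wk mean (y axis), on each of the 6 arrays (x axis), with all 17858 genes as grey squares. The replication-linked median is 1.01, 0.11 and 0.60 in P7 replicates 1, 2 and 3, the excision median 0.24, 0.06 and 0.08.

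Markers of proliferating cells were also lower at 6wk. Of 13 measured proliferation markers 9 fell (69.2%, all genes 13.4%), 0 rose (0 also at an unadjusted p under 0.05), and without P7 replicate 2 all 13 fell (all genes 17.2%). Their median log2 difference was -2.07, larger than that of any repair class. Mki67, the usual marker of cycling cells, read 9.52, 6.94 and 8.93 at P7 and 5.37, 5.07 and 5.36 at 6wk. Pcna (-0.63), Mcm2 (-1.07), Mcm5 (-1.02) and Tyms (-1.16) had smaller differences and did not pass with all arrays. Of 6 granule progenitor markers only Mycn (-2.10) was called (16.7%). All 6 differences were negative, with a median of -0.85, and that of Gli1 was -0.08. The part of cell division in the falls of the repair genes was not tested.

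Several falls ended at dim levels, where array values compress. The 6wk mean of 11 members lay below 6.89, the lowest first quartile of the 6 arrays. They were Bard1, Exo1, Fancd2, Rad54b, Fanci, Chek1, Brca1, Rad51ap1, Fanca, Chek2 and Ung, with 6wk means from 5.55 to 6.86, and at P7 only Rad54b (6.64) was that dim. For scale, the median level of 824 olfactory receptor genes was 4.64. When rows with a mean in the lowest quartile were left out, 4 of the 34 members left were called lower (11.8%, against 16.6% of all genes). The count was 1 of 12 (8.33%) in the replication-linked as in the excision genes. By count, neither the higher share of members nor the gap between these classes was seen among brighter rows. The medians of these classes still differed, at -0.325 and -0.10. Rows were dropped on their mean over all 6 arrays, so genes that were low at 6wk were dropped more readily. These counts therefore cannot show whether the gap is absent among brighter genes.

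Other genes of the same routes, taken from a list of 86, were less uniform in direction. Of 71 measured, 12 fell and 6 rose, or 16.9% and 8.45%, shares near the 13.4% and 8.26% of all genes. Without P7 replicate 2, 20 fell and 5 rose, or 28.2% and 7.04%, against 17.2% and 9.56% of all genes. The share that fell was then above that of all genes. Over the 6 fits that omit an array 1 to 20 fell and 1 to 8 rose, the lowest counts without P7 replicate 3 and 6wk replicate 1. The median difference was -0.07, and 0.02 after array centring.

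In homologous recombination 6 of 20 further genes fell and 3 rose (30% and 15%, against 13.4% and 8.26% of all genes). The largest falls were in Gen1, a resolvase of recombination intermediates, from 7.85 ± 0.85 (SD, n = 3) to 5.86 ± 0.22 (SD, n = 3), in Brip1, a helicase that binds Brca1 (difference -1.62), and in Eme1, a partner of Mus81 (difference -1.02). Mus81 itself, the nuclease subunit, rose by 0.59, and Rad52 and Rad51d, which assist strand exchange, rose by 0.66 and 0.33. The Eme1 levels were 7.72, 6.90 and 7.37 at P7 and 6.41, 6.35 and 6.18 at 6wk, those of Mus81 8.53, 8.23 and 8.42 at P7 and 9.08, 8.94 and 8.95 at 6wk. Thus the 2 subunits of this nuclease were called in opposite directions, and in both genes the ages did not overlap. The calls of all 6 genes ended without P7 replicate 3 or 6wk replicate 1 (adjusted p up to 0.153), those other than Mus81 also without 6wk replicate 2 or 3, and that of Rad51d also without P7 replicate 2.

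Among further mismatch repair genes, 1 of 2 rose (all genes 8.26%). It was Pms1, a MutL homologue, which read 7.50, 6.82 and 7.15 at P7 and 8.33, 8.35 and 8.19 at 6wk, a difference of 1.13 (SE 0.18, limma adjusted p = 0.00704), called in each fit that omits an array. Among 7 further crosslink genes 1 fell (14.3%, near the 13.4% of all genes). It was Fancl (-0.46), the ubiquitin ligase of the core complex, whose call ended without P7 replicate 3 or one of the 6wk arrays. In end joining, 0 of 2 passed with limma, and 0 at an unadjusted p under 0.05, too few genes to compare with the 21.7% of all genes called.

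Further excision genes gave 2 falls in each branch, both of 14 measured, and 0 rises (at an unadjusted p under 0.05, 0 and 1 higher). In each branch the share that fell, 14.3%, was near the 13.4% of all genes. Lig1, the ligase that joins Okazaki fragments and completes long-patch repair, read 8.21, 8.12 and 8.23 at P7 and 7.33, 7.38 and 7.301 at 6wk. Its difference of -0.85 (SE 0.08, adjusted p = 0.00154) had the P7 arrays close together and was called in each fit that omits an array. Apex1, the endonuclease at abasic sites, fell by 0.75, a call that needed P7 replicate 3 and 6wk replicate 3 (adjusted p up to 0.0608). Rad23b and Ddb1, which take part in lesion recognition, fell by 0.41 and 0.36 and were no longer called without P7 replicate 3 or one of the 6wk arrays, Ddb1 also without P7 replicate 1.

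Further signalling genes gave 1 fall and 2 rises among 12 (8.33% and 16.7%, against 13.4% and 8.26% of all genes). Clspn, the adaptor through which Atr activates Chek1, read 7.66, 6.69 and 7.50 at P7 and 6.20, 6.14 and 6.30 at 6wk (difference -1.07, adjusted p = 0.0283). Rif1, which acts with Trp53bp1 to limit end resection, read 8.97, 7.83 and 8.56 at P7 and 9.92, 9.62 and 9.49 at 6wk (difference 1.22, adjusted p = 0.0286), opposite to the fall of Trp53bp1. Both calls ended on omitting P7 replicate 3 or one of the 6wk arrays (adjusted p up to 0.104). Uimc1, which brings the Brca1 A complex to ubiquitin at breaks, rose by 0.78 and lost its call only without 6wk replicate 1 (adjusted p = 0.0509; range 0.00536 to 0.0509).

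Targets of p53, the transcription factor encoded by Trp53, gave 3 falls and 0 rises among 17 (1 higher at an unadjusted p under 0.05). The share that fell, 17.6%, was near the 13.4% of all genes. Cdkn1a, the cell cycle inhibitor p21, read 9.71, 10.07 and 9.78 at P7 and 8.70, 8.93 and 8.84 at 6wk, a difference of -1.03 (SE 0.13, limma adjusted p = 0.00331). The polo-like kinases Plk2 and Plk3 fell by 0.97 and 0.85. In all 3 genes P7 replicate 2 was the highest array, and each was called in every fit that omits an array.

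Promoter windows of 300 bases, from 250 before to 50 after the start that RefSeq uses, were found for 35 of the 41 members (38 windows). The E2F letters searched on both strands were TTTGGCGC, TTTCCCGC, TTTCGCGC and TTTGCCGC. They occurred in 7 of the 38 windows (18.4%) and in 2.26% of all 32851 windows. The 7 genes were Bard1, Brca2, Msh3, Msh6, Chek2, Mdc1 and Xrcc6, of which Bard1 was the only one that fell with all arrays, and in Msh3 a TTTGGCGC and a TTTCGCGC overlapped on opposite strands. By class they occurred in 4 of 16 replication-linked, 2 of 6 damage signalling, 1 of 5 end-joining and 0 of 11 excision windows. With letters as rare as 2.26% of all windows, 0 of 11 cannot set the excision genes apart. CCAAT occurred in 12 of 16 replication-linked windows, 5 of 11 excision windows and 37.4% of all windows. By call it ran the other way, with CCAAT in 3 of 9 windows of members that fell (33.3%) and in 19 of 29 windows of the other members (65.5%). The letters TTTGAA, the cell cycle element CHR, occurred in 1 member window (Bard1) and in 17.9% of all windows. These matches are descriptions of the sequence and say nothing of binding.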

How the data were processed

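The deposited table holds 23750 rows and 1 column per array, with values the authors gave on the log2 scale. The submitters' processing notes name RMA, Affymetrix Power Tools and mm9, with no version or order in the sources used here, and per the labels' protocols ribosomal RNA was depleted first. No count or depth applies to arrays, and their number limits the precision. Rows were named from the platform annotation (18463 rows with 1 symbol, 1799 with several, 3488 with none). Of several rows of a gene the one with the highest mean was kept; each measured member had 1 row. All 17858 genes were fitted with limma 3.58.1 (lmFit, eBayes; R 4.3.3) for 6wk minus P7, two-sided, without a block, and p-values were adjusted over all genes (Benjamini-Hochberg, threshold 0.05). Intervals are 95% intervals of that fit. The steps were tested on simulated data. The members and lists were chosen with earlier results of these data known. Every measured member is named, and of the other repair genes up to 3 called genes per class and direction, by size, whose ages did not overlap. Alternatives omitted each array, kept P7 replicate 1 alone, added a replicate block, rescaled the arrays, dropped dim rows, weighted arrays, changed the prior or averaged a gene's rows. Motif letters were searched on both strands of the RefSeq windows.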

Additional observations from a re-analysis of the deposited data

How the results depend on the processing

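Counts of members called lower at 6wk (11 in all, 7 replication-linked, 1 excision, 1 end joining, 2 damage signalling) depended on the arrays used. Omitting single arrays gave 1 to 20, 1 to 12, 0 to 2, 0 to 2 and 0 to 4. P7 replicate 1 alone gave 21, 13, 3, 2 and 3. Array weights, fitted gene by gene, a choice made after the default estimate did not converge, gave 24, 13, 5, 2 and 4. The weights of P7 replicates 1, 2 and 3 were 0.339, 0.263 and 6.69, so the P7 level rested mostly on replicate 3. At 6wk they were 0.838, 1.11 and 1.8. Of all genes 30.9% were called lower in that fit, against 41.7% of the excision genes. Without dim rows the counts were 4, 1, 1, 1 and 1 of 34, 12, 12, 5 and 5, with fewer genes tested and 16.6% of all genes called lower. Array centring and a further quantile normalization each gave 9, 6, 0, 1 and 2, and the trended, robust prior and the mean of a gene's rows changed none of these 5 counts. No setting called a member higher. With P7 replicate 1 alone the medians were -0.47, -1.01, -0.24, -0.45 and -0.52, against -0.28, -0.58, -0.10, -0.24 and -0.47 with all arrays. Scaling changed the balance over all genes: 13.4% were called lower and 8.26% higher as deposited, 9.54% and 11.7% after centring, and 9.97% and 12% after quantile normalization.

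The replicate block gave 8, 7, 0, 0 and 1, losing Ogg1, Lig4 and Chek1 (adjusted p = 0.0989, 0.0553 and 0.0512). With that block 11.6% of all genes were called lower, against 19.5% of the members. Deviations from group means correlated at 0.274, 0.141 and -0.056 between same-numbered arrays, not all above 0.1, and P7 replicate 2 correlated best with 6wk replicate 3 (0.206), so the numbers were not taken to pair samples.

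Members whose difference changed sign were not called in the fits that turned it. When single arrays were omitted, differences ran from -0.11 to 0.34 in Fancc, -0.13 to 0.11 in Fancm, -0.18 to 0.20 in Msh3, -0.38 to 0.0083 in Msh6, -0.047 to 0.20 in Pms2, -0.21 to 0.084 in Parp2, -0.036 to 0.077 in Neil1, -0.034 to 0.22 in Xpa, -0.082 to 0.17 in Xrcc6, -0.033 to 0.11 in Prkdc, -0.25 to 0.20 in Atm and -0.29 to 0.071 in Atr. With P7 replicate 1 alone, Fancc (-0.28), Msh3 (-0.36), Neil1 (-0.057), Xpa (-0.059), Xrcc6 (-0.15), Prkdc (-0.054) and Atm (-0.39) turned. Quantile normalization turned Fancm (0.085), Parp2 (0.033) and Xpc (0.0068), centring Fancm (0.080), Parp2 (0.018) and Ercc3 (0.0021), and array weights Fancm (0.013), Msh3 (-1.1e-05), Xrcc6 (-0.028) and Atm (-0.11). The cause was not tested.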
